A study of Mus musculus with 15 samples.

Results

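Brain transcriptomes of mice in the JU arm of a middle cerebral artery occlusion (MCAO) study were compared with those of sham mice, to describe how far the JU-treated brain still differed from the sham brain. The 6 libraries used, 3 JU and 3 sham, were part of 15, in 5 groups of 3. The other groups were vehicle and the treatments written JA and UA in the labels. All 15 entered the fit, which shares 1 estimate of the spread. The p-values therefore rest in part on the spread within the vehicle, JA and UA groups. Of 18931 genes listed, 14618 had at least 10 counts in 3 or more of the 6 libraries and were tested. All animals were Kunming mice, an outbred stock, and the tissue was given as brain, with no region, hemisphere, time after surgery, age, sex or dose in the sources used here. The labels place the name of the model before every group, sham included. The JU group carried the treatment written JU, the vehicle group carried the treatment written vehicle and the sham group carried the treatment written Sham. The labels do not spell out JU, and the title of the series names jasminoidin, an iridoid glucoside of gardenia fruit, combined with ursodeoxycholic acid, a bile acid. Whether each library is a separate mouse is not stated, and p-values here measure the spread between libraries, which may be technical.

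MCAO blocks the artery that feeds much of the lateral cortex and the striatum, and restoring flow is followed by inflammation. Microglia, the resident macrophages of the brain, then leave their surveying state and take up debris, astrocytes raise their intermediate filaments, and neurons of the territory are lost. Transcripts of phagocytes and reactive astrocytes therefore tend to rise in injured tissue, while transcripts of striatal and cortical neurons tend to fall. In bulk tissue, fewer cells of a type and less RNA per cell cannot be told apart.

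The 6 libraries held between 18678857 and 19970352 counts. JU replicate 1 stood apart from the other JU libraries. The 10 most abundant genes took 7.57% of its counts, against 3.0% in JU replicate 2, 3.02% in JU replicate 3 and 2.84% to 2.87% in the sham libraries. In JU replicate 1, 2752 genes stood at least 2-fold above the sham mean and 1675 at least 2-fold below it. JU replicate 2 had 92 such genes above and 127 below, and JU replicate 3 had 495 above and 143 below. The vehicle libraries had 765, 1891 and 898 above, and a sham library set against the other sham libraries had 82 to 135 above and 85 to 154 below. JU replicate 2 thus lay about as far from sham as the sham libraries lay from each other by this count. By the median absolute log2 difference over the tested genes it lay farther, at 0.176, against 0.096 to 0.115 for the sham libraries. JU replicate 1 lay farther from sham than any vehicle library. The results are therefore given with all JU libraries and without JU replicate 1.

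With edgeR's quasi-likelihood test and Benjamini-Hochberg adjustment over all tested genes, 582 genes (3.98%) had an adjusted p under 0.05, of which 127 (0.869%) were higher in JU and 455 (3.11%) were lower. DESeq2 gave the opposite split, with 1707 higher and 1215 lower. Fitted on the JU and sham libraries alone, edgeR called 0 genes, with 2152 at an unadjusted p under 0.05, so that no call from all JU libraries held there, whereas without JU replicate 1 that fit called 1449. Without JU replicate 1, 309 genes (2.11%) passed, 53 (0.363%) higher and 256 (1.75%) lower. The 2 sets shared 250 genes, 43.0% of the first and 80.9% of the second, all with the same sign, 39 higher and 211 lower. The typical change was small: the median log2 fold change was 0.50 for the higher and −0.44 for the lower genes with all libraries. All 3 JU libraries lay above all 3 sham libraries for 2026 genes (13.9%) and below them for 2571 genes (17.6%). As the background for the gene lists below, 4806 genes (32.9%) had an unadjusted p under 0.05 in edgeR, DESeq2 called 2922 (20%), voom 583 (3.99%) and limma on FPKM 669 (5.01%). Without JU replicate 1, 2882 genes (19.7%) had an unadjusted p under 0.05 and DESeq2 called 1070 (7.32%). Taken singly, 43.8%, 33.1% and 35.6% of genes lay above all sham libraries in JU 1, JU 2 and JU 3, and 44.9%, 33.3% and 35.6% lay below them. In the vehicle libraries the shares were 35.6%, 41.3% and 36.4% above and 37.9%, 42.4% and 36.7% below. Of the 14618 genes, 25 reached the count minimum through JU libraries alone, 2 of them past the threshold, and 9 through sham libraries alone.

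Which libraries entered the test decided the count. It was 4236 without JU replicate 2 (2542 higher and 1694 lower), 0 without JU replicate 3 (5182 genes at an unadjusted p under 0.05), 133 without sham replicate 1, 0 without sham replicate 2 (3447 unadjusted) and 0 without sham replicate 3 (3371 unadjusted). Each gene named below as past the threshold was thus no longer past it when JU replicate 3, sham replicate 2 or sham replicate 3 was left out.

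**Figure D1:**
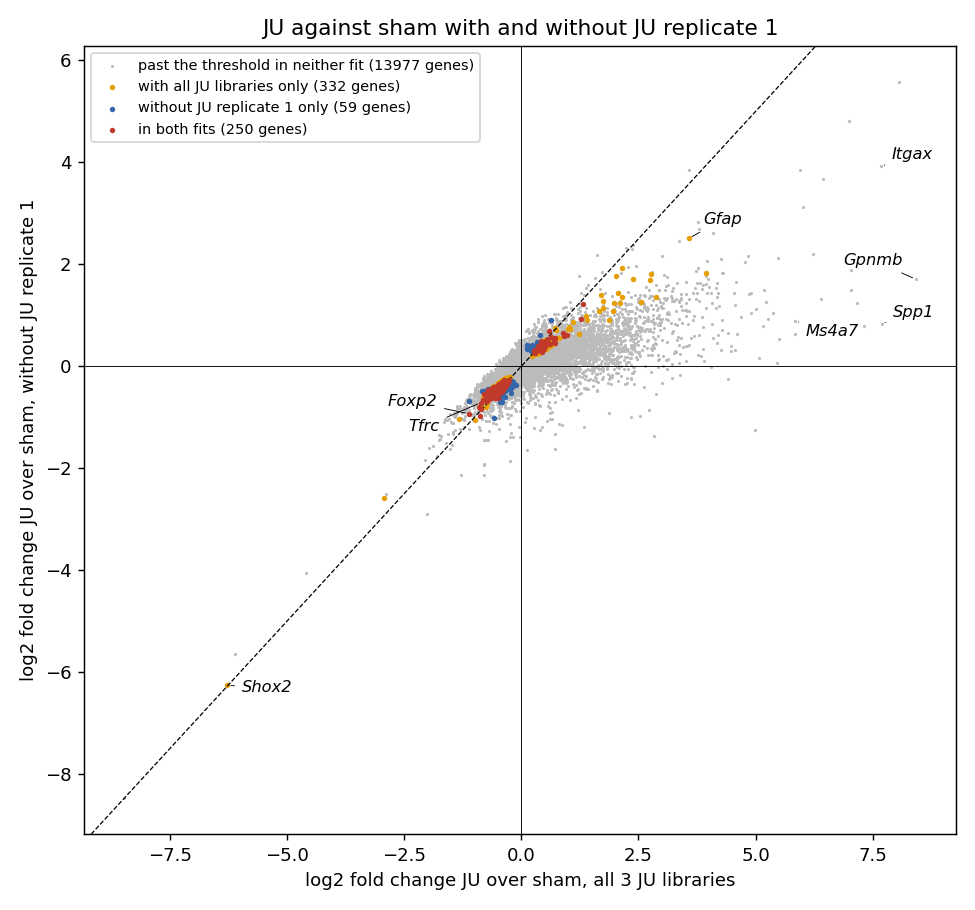
Each point is 1 of 14618 genes, with the log2 fold change of JU over sham from all 3 JU libraries on the x axis and without JU replicate 1 on the y axis; colours mark the fits in which the adjusted p was under 0.05, and the dashed line marks equal values. The 250 genes past the threshold in both fits lie close to the dashed line, mostly below 0, while Spp1, Gpnmb, Itgax and Ms4a7 lie far to its right and pass in neither fit.

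The genes past the threshold differed in base composition. The median transcript GC content was 56.6% for the higher genes and 41.6% for the lower genes, against 49.9% for all tested genes, and it was 57.7% and 41.3% without JU replicate 1. Among genes of the lowest decile of GC content, the median log2 difference from the sham mean was −0.25, −0.26 and −0.30 in the JU libraries and −0.31, −0.30 and −0.29 in the vehicle libraries. Sham libraries set against the other sham libraries gave −0.09, 0.02 and 0.07. The shift was therefore present in every JU and every vehicle library and was larger than that among sham libraries. When a smooth trend on GC content was removed from each library, no gene passed edgeR's threshold, with 3675 genes at an unadjusted p under 0.05 and a smallest adjusted p of 0.148. Without JU replicate 1 the same correction also left 0 genes, with 1246 unadjusted and a smallest adjusted p of 0.386. Of the 579 called genes with a GC value, 574 kept their sign under the correction, and the median log2 fold change became −0.24 for the lower and 0.41 for the higher genes.

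**Figure D2:**
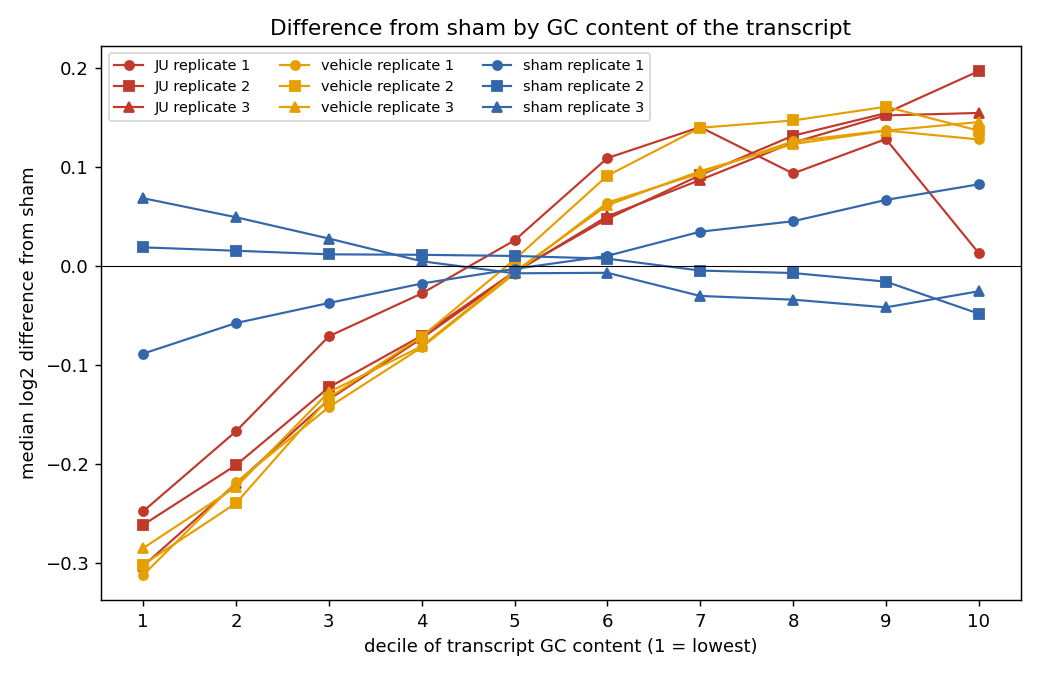
The median log2 difference from sham (y axis) is drawn for genes grouped into 10 deciles of transcript GC content (x axis, lowest first); each line is 1 library, coloured by group, and a sham library is set against the other sham libraries. The JU and vehicle lines lie between −0.31 and −0.25 in the lowest decile and above 0 in the upper deciles, while the sham lines lie between −0.09 and 0.07 in the lowest.

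Microglial genes were higher in JU than in sham in the libraries JU 1 and JU 3 and near sham in JU 2. Fcrls, an Fc receptor-like gene used as a marker of resident microglia (chr3:87250758-87263738, minus strand, GRCm38), reached 357, 35.6 and 150 CPM (counts per 1000000 counts of the library, after TMM scaling) in the JU libraries and 168, 457 and 288 CPM in the vehicle libraries, against 28.2, 30.1 and 21.8 CPM in the sham libraries. Every JU library exceeded every sham library, JU 2 by little. Its log2 fold change was 2.76 ± 0.69 (SE, adjusted p = 0.047) with all libraries and 1.81 ± 0.64 (adjusted p = 0.15) without JU replicate 1. Sall1, a transcription factor that maintains microglial identity, had 79.6, 33.6 and 57.3 CPM in JU and 47.6, 70.7 and 59.7 CPM in vehicle, against 28.1, 25.8 and 28.9 CPM in sham. It rose by a log2 fold change of 1.04 ± 0.26 (adjusted p = 0.045), with 0.73 ± 0.22 (adjusted p = 0.097) without JU replicate 1. Again no JU library overlapped the sham range.

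These were the 2 of 14 homeostatic microglia genes past the threshold, against 0.869% of all genes higher. DESeq2 called 11 of the 14, and voom and limma on FPKM called none. All 14 had a positive log2 fold change, with a median of 1.2 (0.81 without JU replicate 1, where none passed edgeR, 7 had an unadjusted p under 0.05 and DESeq2 called 3). The median over all tested genes was 0.01, and 0.02 without JU replicate 1. Cx3cr1, the fractalkine receptor, had 361, 86.0 and 196 CPM in JU, against 61.0, 68.9 and 73.7 CPM in sham (adjusted p = 0.059). P2ry12, the purinergic receptor of surveying microglia, had 99.1, 68.4 and 152 CPM in JU, against 57.3, 74.7 and 71.4 CPM in sham (adjusted p = 0.093), so that JU 2 fell inside the sham range. Summed over the 14 genes, the level was 4807, 952 and 2135 CPM in JU and 2002, 4014 and 2842 CPM in vehicle, against 862, 846 and 905 CPM in sham.

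**Figure D3:**
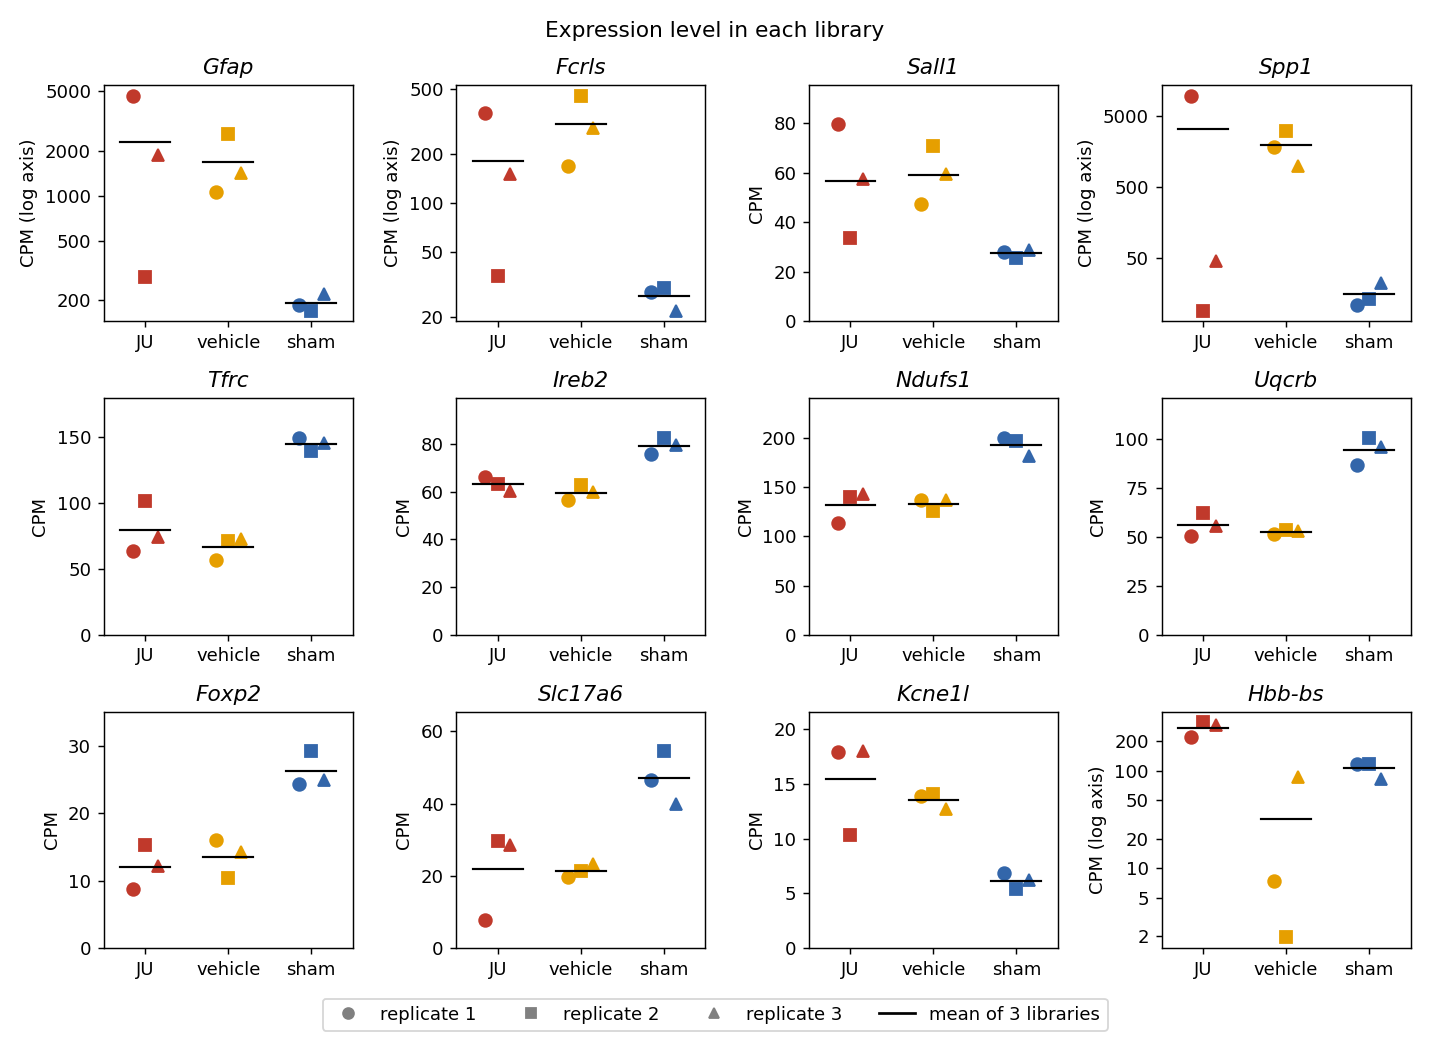
The level in CPM (y axis, logarithmic where marked) is shown for 12 genes in each JU, vehicle and sham library (x axis); symbols give the replicate number and horizontal lines the group mean. Gfap, Fcrls and Spp1 are spread widely within JU, with replicate 1 highest and replicate 2 lowest, whereas Tfrc, Ireb2, Ndufs1, Uqcrb and Foxp2 lie below every sham library in all 3 JU libraries.

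Genes that microglia and macrophages raise on contact with debris gave higher mean values but no gene past the threshold. All 20 tested reactive microglia genes had a positive log2 fold change (median 3.80, and 1.16 without JU replicate 1). By edgeR, voom and limma on FPKM none passed, 19 had an unadjusted p under 0.05, and DESeq2 called 17; without JU replicate 1 none passed any of these tools and 2 had an unadjusted p under 0.05. Trem2, the lipid-sensing receptor of phagocytic microglia, had 313, 12.9 and 57.7 CPM in JU and 92.0, 236 and 121 CPM in vehicle, against 9.95, 8.34 and 9.71 CPM in sham. Itgax, which encodes the integrin CD11c, had 105, 0.65 and 4.71 CPM in JU, against 0.32, 0.05 and 0.16 CPM in sham. Tyrobp, the signalling adaptor of Trem2, had 476, 15.5 and 86.2 CPM in JU, against 12.6, 12.2 and 12.1 CPM in sham. For each of these genes all JU libraries lay above all sham libraries, which held for 12 of the 20 genes, against 13.9% of all genes. Itgax reached the count minimum through JU libraries alone, so that it had to be higher in JU and its place in these counts supports nothing. The adjusted p was 0.062 for both Trem2 and Tyrobp.

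Spp1, which encodes osteopontin, was spread widely within the JU group, with 9691, 9.22 and 46.4 CPM. It had 1823, 3073 and 999 CPM in vehicle, against 11.1, 13.4 and 22.9 CPM in sham. JU 2 lay below the sham range and JU 3 above it. The genes whose level in JU replicate 1 most exceeded the higher of the other 2 JU libraries, described here without a test, were Cfap77, Spp1, Gpnmb, Msr1, Adam8, Lgals3, Lcn2, Ms4a7, Ltbp2 and Lox, with ratios of 75.1 to 219. Most of these are genes of phagocytes or matrix. Gpnmb, a glycoprotein of lipid-laden macrophages, had 3415, 5.13 and 16.5 CPM in JU and 534, 1426 and 232 CPM in vehicle, against 2.79, 2.71 and 4.54 CPM in sham. Cfap77, a gene of motile cilia, behaved differently: 47.9 CPM in JU 1 stood against 0.22 and 0.20 CPM in the other JU libraries, 0.15 to 0.49 CPM in vehicle and 0.26 to 0.68 CPM in sham, so that it was high in that library alone among the 9.

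Complement, lysosome and lipid-handling genes followed the same order of libraries. All 15 complement genes had a positive log2 fold change (median 3.34, and 0.92 without JU replicate 1). All 15 had an unadjusted p under 0.05 and DESeq2 called 14, while edgeR, voom and limma on FPKM called none. C1qa, a chain of the initiating complex of the classical pathway, had 1047, 37.8 and 134 CPM in JU, against 31.6, 29.6 and 35.3 CPM in sham. C4b, the complement component cleaved next in that pathway, had 333, 17.3 and 68.6 CPM in JU, against 15.2, 12.4 and 14.2 CPM in sham. Of the 19 lysosome genes tested, all were positive (median 2.42, and 0.82 without JU replicate 1). DESeq2 called 17 and 18 had an unadjusted p under 0.05, while edgeR, voom and limma on FPKM called none. Ctsd, the protease cathepsin D, had 16380, 548 and 2223 CPM in JU, against 480, 442 and 434 CPM in sham. Of 17 cholesterol efflux and lipid handling genes 16 were positive (median 1.60, and 0.30 without JU replicate 1). None passed edgeR or voom, 14 had an unadjusted p under 0.05, DESeq2 called 12 and limma on FPKM 1. Without JU replicate 1, 0 complement, 1 lysosome and 1 lipid handling gene had an unadjusted p under 0.05 in edgeR, against 19.7% of all genes. DESeq2 called 0 in each of these lists there. Apoe, the main lipid carrier of the brain, had 14020, 1532 and 2306 CPM in JU, against 1232, 1151 and 1240 CPM in sham. In each of C1qa, C4b, Ctsd and Apoe the 3 JU libraries lay above the sham range, with JU 2 closest to it.

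Cells of blood and border origin were set beside these genes. Of 12 monocyte and macrophage genes tested all were positive (median 3.0, and 0.52 without JU replicate 1), and their summed level was 2869, 121 and 203 CPM in JU and 654, 1369 and 438 CPM in vehicle, against 115, 103 and 108 CPM in sham. DESeq2 called 7 and 11 had an unadjusted p under 0.05, while edgeR, voom and limma on FPKM called none. Without JU replicate 1, 0 had an unadjusted p under 0.05 in edgeR, against 19.7% of all genes, and DESeq2 called 0. Only 4 of 12 neutrophil genes and 2 of 14 lymphocyte genes reached the count minimum, with summed levels of 17.8, 3.49 and 10.1 CPM and of 9.96, 13.4 and 7.19 CPM in JU, against 5.89 to 7.88 CPM and 11.4 to 17.7 CPM in sham. None of these 6 genes passed edgeR, had an unadjusted p under 0.05 or was called by DESeq2, voom or limma on FPKM. The part of blood-derived cells in the microglial and complement values was not tested.

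Among the genes of immune cells that passed the threshold outside the microglial list, Gpr183, the oxysterol receptor that guides immune cells, had 26.3, 2.73 and 5.16 CPM in JU, against 1.84, 1.41 and 1.41 CPM in sham. It rose by a log2 fold change of 2.87 ± 0.70 (adjusted p = 0.045). Plcb2, a phospholipase C of haematopoietic cells, had 35.2, 4.53 and 8.38 CPM in JU, against 2.47, 3.18 and 2.51 CPM in sham and rose by 2.56 ± 0.64 (adjusted p = 0.048). Ccdc88b, expressed in immune cells, rose by 2.14 ± 0.48 (adjusted p = 0.037), and S100a4, a calcium-binding protein of motile cells, rose by 3.93 ± 0.98 (adjusted p = 0.047). JU libraries lay above sham libraries without overlap for all 4 of Gpr183, Plcb2, Ccdc88b and S100a4. Without JU replicate 1 the log2 fold change was 1.4 for Gpr183, 1.3 for Plcb2, 1.4 for Ccdc88b and 1.8 for S100a4. The adjusted p in that fit was 0.090 for Gpr183, 0.11 for Plcb2, 0.063 for Ccdc88b and 0.13 for S100a4.

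Gfap, the intermediate filament of astrocytes (chr11:102887336-102900912, minus strand, GRCm38), was the 1 gene of 18 tested reactive astrocyte genes past the threshold, against 0.869% of all genes higher. DESeq2 called 11 of the 18, and voom and limma on FPKM called none. It reached 4681, 283 and 1879 CPM in JU and 1061, 2577 and 1414 CPM in vehicle, against 186, 169 and 219 CPM in sham. JU 2 lay closest to sham but above its range. Gfap rose by a log2 fold change of 3.58 ± 0.87 (adjusted p = 0.045), with 2.51 ± 0.82 (adjusted p = 0.13) without JU replicate 1. The 18 genes were all positive, 1 of them (Clcf1) having reached the count minimum through JU libraries alone, with a median of 2.73 (0.59 without JU replicate 1, 16 of 18 positive, where none passed edgeR, 1 had an unadjusted p under 0.05 and DESeq2 called 1). Vim, a partner filament of Gfap, had 1360, 47.2 and 160 CPM in JU, against 34.8, 37.2 and 44.3 CPM in sham (adjusted p = 0.060).

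Astrocyte genes of the resting state were slightly higher in JU than in sham. Their summed level was 7921, 7320 and 7996 CPM in JU and 6471, 7160 and 6646 CPM in vehicle, against 7074, 6875 and 7090 CPM in sham. Every JU library lay above the sham range in the sum. The 14 homeostatic astrocyte genes had a median log2 fold change of 0.28 (0.17 without JU replicate 1), with 11 positive. DESeq2 called 2 (against 20% of all genes) and 5 had an unadjusted p under 0.05 (against 32.9%), while edgeR, voom and limma on FPKM called none. Aldh1l1, a folate enzyme that marks astrocytes, had 91.1, 81.6 and 88.8 CPM in JU and 65.6, 85.1 and 75.0 CPM in vehicle, against 65.5, 58.7 and 68.1 CPM in sham (log2 fold change 0.44 ± 0.13, adjusted p = 0.068). Its JU values were close together and all above the sham range. Slc1a2, the main glutamate transporter, had 1871, 2783 and 2749 CPM in JU, against 2592, 2602 and 2643 CPM in sham, so that JU 1 was low and the other JU libraries were above the sham range.

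Dividing cells and matrix genes were high in JU 1. The 22 cell cycle genes had a median log2 fold change of 2.11 with all libraries and 0.20 without JU replicate 1, and 20 fibroblast and matrix genes had medians of 2.38 and 0.33. With all libraries, none of the cell cycle genes passed edgeR, voom or limma on FPKM, 18 had an unadjusted p under 0.05 and DESeq2 called 12. None of the matrix genes passed edgeR, voom or limma on FPKM, all 20 had an unadjusted p under 0.05 and DESeq2 called 11. Without JU replicate 1, 1 cell cycle gene and 1 matrix gene had an unadjusted p under 0.05 in edgeR, against 19.7% of all genes. DESeq2 called 0 in either list there. Mki67, a protein of proliferating cells, had 92.4, 2.24 and 6.40 CPM in JU and 25.6, 51.6 and 22.1 CPM in vehicle, against 3.48, 4.75 and 5.06 CPM in sham. Fn1, the matrix protein fibronectin, had 1275, 74.7 and 120 CPM in JU, against 70.4, 60.3 and 63.8 CPM in sham. Mki67 in JU 2 lay below the sham range, while Fn1 in every JU library lay above it.

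**Figure D4:**
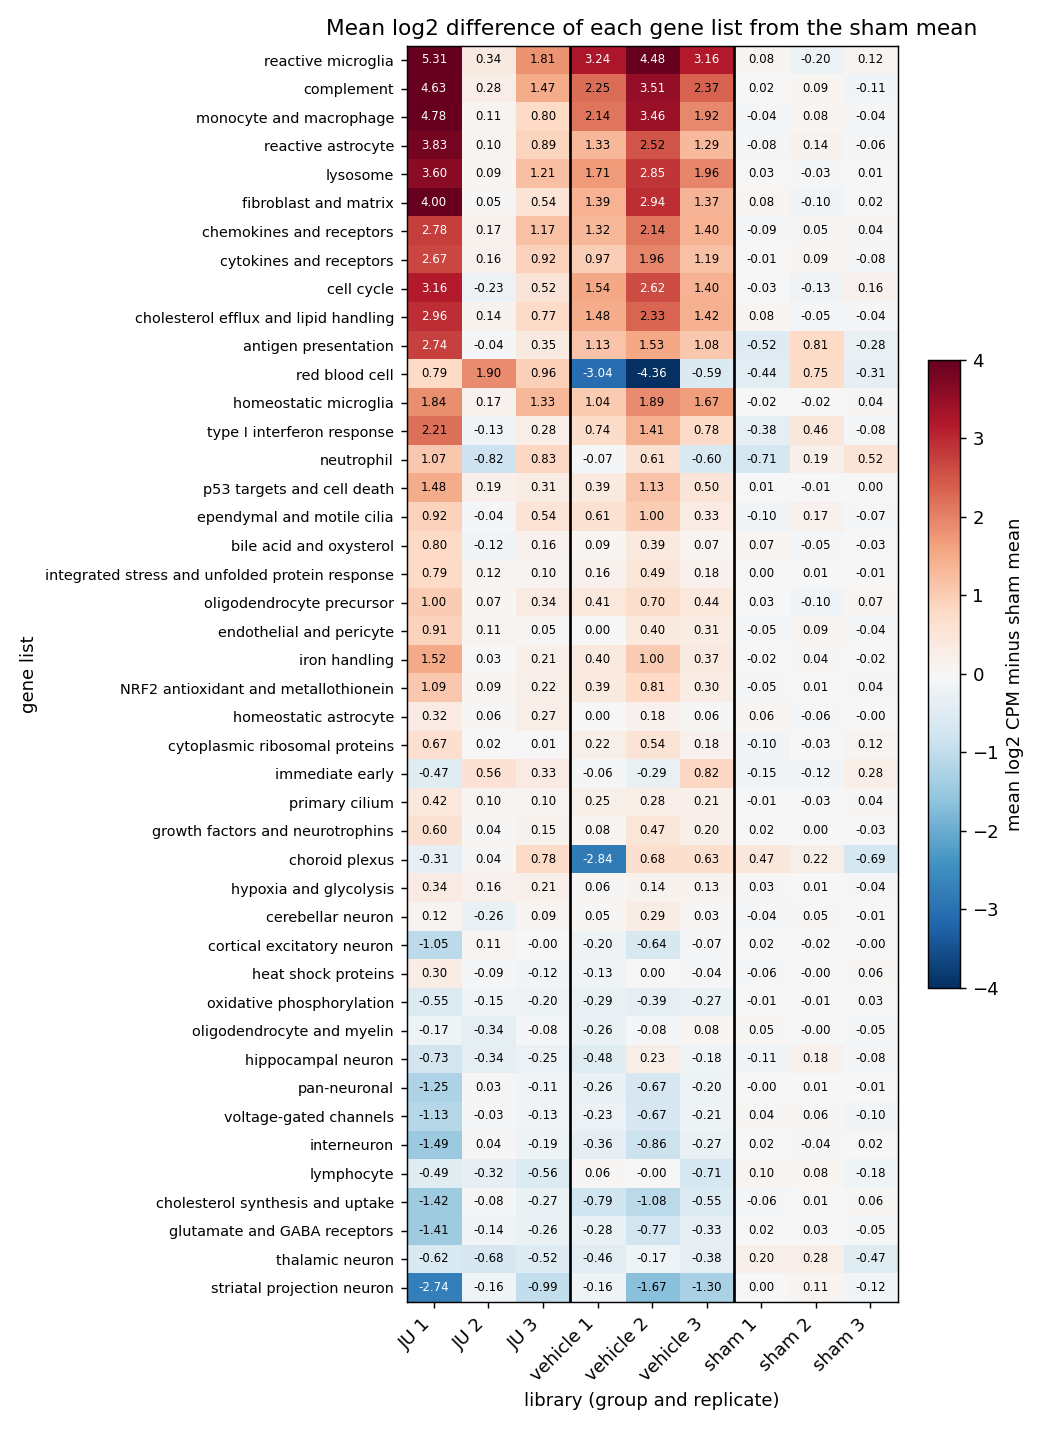
Each cell gives the mean log2 CPM of a gene list (rows) in a JU, vehicle or sham library (columns) minus its sham mean, averaged over the tested genes of the list; colour repeats the number, and rows are ordered by the median log2 fold change of JU over sham. JU 1 has the highest value of the 9 libraries for reactive microglia (5.31) and the lowest for striatal projection neurons (−2.74), while JU 2 gives 0.34 and −0.16.

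Genes shared by most neurons were low in JU 1, near sham in JU 2 and slightly below sham in JU 3. Striatal genes lay farther below sham in JU 3. The mean log2 difference from sham in JU 3 was −0.11 for pan-neuronal genes and −0.99 for striatal genes. The 16 pan-neuronal genes had a median log2 fold change of −0.33, and −0.01 without JU replicate 1. Their summed level was 6008, 15266 and 13461 CPM in JU and 12480, 9303 and 12683 CPM in vehicle, against 15005, 14868 and 14777 CPM in sham. None passed edgeR in either fit, none had an unadjusted p under 0.05, and DESeq2, voom and limma on FPKM called none. Snap25, a synaptic vesicle fusion protein, had 774, 2590 and 2218 CPM in JU, against 2863, 2843 and 2800 CPM in sham, below the sham range in every JU library. The 16 striatal projection neuron genes were all negative in both fits, with a median of −0.92 (−0.48 without JU replicate 1). None passed edgeR, voom, limma on FPKM or DESeq2. In edgeR 3 had an unadjusted p under 0.05 (against 32.9% of all genes), and 2 without JU replicate 1 (against 19.7%). Drd1, the D1 dopamine receptor, had 6.01, 42.9 and 24.9 CPM in JU and 44.6, 14.7 and 20.6 CPM in vehicle, against 53.4, 64.2 and 47.8 CPM in sham. Drd1 was below the sham range in every JU library, with JU 1 lowest and JU 2 nearest to sham.

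Receptor and channel genes had negative medians. All 19 glutamate and GABA receptor genes were negative (median −0.51, and −0.19 without JU replicate 1), and 12 of them lay below sham in all JU libraries without overlap, against 17.6% of all genes. None passed edgeR, voom or limma on FPKM. In edgeR 7 had an unadjusted p under 0.05 (against 32.9% of all genes), and DESeq2 called 2 (against 20%). With the GC trend removed the receptor median was −0.37, and −0.05 without JU replicate 1. Gabra4, a GABA-A receptor subunit of striatum, thalamus and hippocampus, had 44.0, 128 and 115 CPM in JU, against 162, 171 and 163 CPM in sham (adjusted p = 0.093). The 20 voltage-gated channel genes had a median of −0.38 (−0.11 without JU replicate 1). None passed edgeR or voom, 4 had an unadjusted p under 0.05 (against 32.9% of all genes), DESeq2 called 2 and limma on FPKM 1. With the GC trend removed the channel median was −0.31, and −0.04 without JU replicate 1. Kcna1, the potassium channel Kv1.1, had 150, 202 and 198 CPM in JU, against 252, 255 and 228 CPM in sham (adjusted p = 0.052).

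Foxp2, a transcription factor of deep cortical layers, striatum and thalamus, fell in both fits. It had 8.83, 15.2 and 12.2 CPM in JU and 16, 10.4 and 14.2 CPM in vehicle, against 24.4, 29.3 and 25 CPM in sham. The log2 fold change was −1.12 ± 0.23 (adjusted p = 0.027), and −0.93 ± 0.22 (adjusted p = 0.049) without JU replicate 1. No JU library reached the sham range. Foxp2 was the 1 of 14 cortical excitatory neuron genes past the threshold with all libraries, against 3.11% of all genes lower; without JU replicate 1 Neurod2 passed as well and in the opposite direction. Neurod2, a transcription factor of excitatory neurons, had 93.7 and 80.6 CPM in JU replicates 2 and 3, against 65.2, 64.8 and 67.7 CPM in sham (log2 fold change 0.41 ± 0.09, adjusted p = 0.046), while JU 1 had 59.1 CPM. Camk2a, the abundant kinase of excitatory synapses, had 3909 and 3291 CPM in JU replicates 2 and 3, against 3062, 2820 and 2678 CPM in sham (adjusted p = 0.11 without JU replicate 1), and 1461 CPM in JU 1.

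The mean of the thalamic genes was below the sham mean in all 3 JU libraries, but not far below sham replicate 3. The mean log2 difference from sham was −0.62, −0.68 and −0.52 in JU and −0.46, −0.17 and −0.38 in vehicle, against −0.47 in sham replicate 3. Slc17a6, the vesicular glutamate transporter of thalamic and other subcortical neurons, had 7.70, 29.6 and 28.4 CPM in JU and 19.6, 21.2 and 23.4 CPM in vehicle, against 46.7, 54.6 and 40.0 CPM in sham. It fell by a log2 fold change of 0.69 ± 0.12 without JU replicate 1 (log2 fold change −0.69, adjusted p = 0.028), whereas with all libraries the log2 fold change of −1.10 ± 0.34 gave an adjusted p of 0.072. JU libraries lay below the sham range throughout. Slc17a6 was the 1 of 10 thalamic neuron genes past the threshold without JU replicate 1, against 1.75% of all genes lower. With all libraries none passed edgeR, voom or limma on FPKM. In edgeR 5 had an unadjusted p under 0.05 (against 32.9% of all genes), and DESeq2 called 2 (against 20%). The median of the 10 genes was −0.61, and −0.44 without JU replicate 1. Shox2, a homeobox gene of thalamic neurons, had 0.05, 0.11 and 0 CPM in JU and 0.26, 3.33 and 1.10 CPM in vehicle, against 5.53, 7.41 and 0.57 CPM in sham. It reached the count minimum through sham libraries alone, so that it had to be lower in JU, and its JU values rest on fewer than 3 counts each. No fold or test is therefore given for Shox2. Sham replicate 3 stood apart from the other sham libraries for these genes: its mean log2 difference from sham over the thalamic list was −0.47, against 0.20 and 0.28, and over 10 choroid plexus genes it was −0.69, against 0.47 and 0.22. How the tissue was cut is not given in the sources used here, and its part in the thalamic and Shox2 values was not tested.

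The gene for cellular iron uptake was lower in every JU library. Tfrc, the transferrin receptor through which cells take up iron (chr16:32608920-32632794, plus strand, GRCm38), had 63.4, 102 and 74.0 CPM in JU and 56.4, 71.2 and 72.2 CPM in vehicle, against 149, 139 and 145 CPM in sham. Every JU and every vehicle library lay below the sham range. Tfrc fell by 0.86 on the log2 scale (log2 fold change −0.86 ± 0.16, adjusted p = 0.023), and by 0.71 (−0.71 ± 0.15, adjusted p = 0.036) without JU replicate 1. With the GC trend removed the log2 fold change was −0.59 (adjusted p = 0.15). Ireb2, which encodes iron regulatory protein 2, had 66.1, 63.3 and 60.3 CPM in JU and 56.4, 62.7 and 59.9 CPM in vehicle, against 75.9, 82.7 and 79.5 CPM in sham. It fell by a smaller amount (log2 fold change −0.33 ± 0.07, adjusted p = 0.030, and −0.35 ± 0.07, adjusted p = 0.034, without JU replicate 1), with no overlap between JU and sham libraries. For Ireb2, whose transcript has a GC content of 39.0%, the log2 fold change with the GC trend removed was −0.04 (adjusted p = 0.70).

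The product of Ireb2 and its relative bind hairpins called iron-responsive elements, and binding in the 3′ untranslated region of the Tfrc transcript is known to protect it from decay when iron is scarce. The hairpins are shown because iron regulatory proteins are known to act on them. A search of GENCODE transcripts on GRCm38 for a bulged C, 5 paired bases, the loop CAGTGN and the 5 pairing bases found 4 matches in Tfrc, all in the 3′ untranslated part of exon 19 of 19, on the plus strand. In this pattern N could be A, C or T, and G-T pairs counted as paired. Capitals mark the 6 loop bases.
Tfrc element 1, chr16:32631221-32631245: ttatcggaagCAGTGCcttccataa
Tfrc element 2, chr16:32631600-32631624: ttatcgggagCAGTGTcttccataa
Tfrc element 3, chr16:32631665-32631689: atatcggagaCAGTGAtctccatat
Tfrc element 4, chr16:32631712-32631736: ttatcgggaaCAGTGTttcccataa
The pattern occurred in 166 of 14522 genes scanned (1.14%), and Tfrc was the 1 gene with 3 or more matches. A match is a description of the letters and not evidence of binding in these samples.

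Tfrc and Ireb2 were the 2 of 13 tested iron handling genes past the threshold, both lower, against 3.11% of all genes lower; 11 of the 13 genes were positive, with a median of 0.35 (0.06 without JU replicate 1). Hmox1, the haem-degrading enzyme that releases iron, had 141, 13.6 and 14.7 CPM in JU and 60.9, 86.3 and 22.6 CPM in vehicle, against 4.37, 5.63 and 6.0 CPM in sham (log2 fold change 3.40 ± 0.94, adjusted p = 0.059). Ftl1, the ferritin light chain that stores iron, had 3463, 361 and 454 CPM in JU, against 281, 272 and 307 CPM in sham (adjusted p = 0.076); reads of the ferritin genes may be shared with near-identical copies. Both Hmox1 and Ftl1 were above the sham range in all JU libraries.

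Respiratory chain genes were lower in JU by small amounts, with JU 1 lowest. Their mean log2 difference from sham was −0.55, −0.15 and −0.20 in the JU libraries. All 23 oxidative phosphorylation genes had a negative log2 fold change with all libraries (median −0.28) and 21 of 23 without JU replicate 1 (median −0.15). In 18 of them no JU library reached the sham range, against 17.6% of all genes. With all libraries 4 passed the threshold, against 3.11% of all genes lower, and Ndufs1 alone without JU replicate 1, against 1.75%. Ndufs1, the largest subunit of complex I, had 113, 140 and 143 CPM in JU and 137, 126 and 137 CPM in vehicle, against 200, 197 and 181 CPM in sham. It fell in both fits (log2 fold change −0.54 ± 0.10, adjusted p = 0.023, and −0.44 ± 0.09, adjusted p = 0.034). Ndufv2, another complex I subunit, had a log2 fold change of −0.50 ± 0.12 (adjusted p = 0.043), Cox5a, a subunit of cytochrome c oxidase, −0.53 ± 0.13 (adjusted p = 0.040), and Atp5c1, the gamma subunit of ATP synthase, −0.37 ± 0.09 (adjusted p = 0.039).

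Outside that list, 2 further respiratory genes were among those with the largest falls. Uqcrb, a subunit of complex III, had 50.3, 62.0 and 55.6 CPM in JU and 51.6, 53.5 and 52.7 CPM in vehicle, against 86.3, 101 and 95.9 CPM in sham. It fell in both fits (log2 fold change −0.75 ± 0.12, adjusted p = 0.021, and −0.67 ± 0.12, adjusted p = 0.030). Ndufb1, a small complex I subunit, had 21.5, 28.1 and 24.4 CPM in JU, against 39.1, 45.8 and 53.1 CPM in sham (log2 fold change −0.90 ± 0.13, adjusted p = 0.021, and −0.80 ± 0.13, adjusted p = 0.028). JU and sham did not overlap for either Uqcrb or Ndufb1. Hspd1, the mitochondrial chaperonin, was the 1 of 16 heat shock genes past the threshold, against 3.11% of all genes lower, with 134, 148 and 137 CPM in JU, against 175, 170 and 196 CPM in sham (log2 fold change −0.37 ± 0.08, adjusted p = 0.029, and 0.053 without JU replicate 1). For the heat shock list the median was −0.21 while the mean had the opposite sign.

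With the GC trend removed, these values moved unequally and none passed the threshold. The log2 fold change was −0.43 for Ndufs1, −0.41 for Atp5c1, −0.31 for Cox5a, −0.28 for Ndufv2, −0.49 for Uqcrb and −0.30 for Hspd1. The median of the 23 oxidative phosphorylation genes was −0.25, against −0.28 without the correction.

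Of the other genes with the largest falls in both fits, 2 encode zinc finger proteins. Zfp931 had 8.63, 9.77 and 8.23 CPM in JU, against 14.5, 15.8 and 18.1 CPM in sham (log2 fold change −0.86 ± 0.13, adjusted p = 0.021), and −0.43 with the GC trend removed. Zfp119b had 2.62, 2.35 and 1.98 CPM in JU, against 4.32, 3.60 and 4.91 CPM in sham (−0.88 ± 0.19, adjusted p = 0.034). Klhl4, a kelch-repeat protein, had 8.58, 11.8 and 11.4 CPM in JU, against 16.7, 18 and 20.9 CPM in sham (−0.81 ± 0.14, adjusted p = 0.022). Hnmt, the enzyme that inactivates histamine in the brain, had 13.4, 16.5 and 12.9 CPM in JU, against 24.6, 21.7 and 24.3 CPM in sham (−0.72 ± 0.12, adjusted p = 0.021). Zfp931, Zfp119b, Klhl4 and Hnmt all passed without JU replicate 1 as well, and for none of them did JU and sham overlap.

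Sms, spermine synthase, had 48.3, 95.3 and 85.4 CPM in JU, against 130, 128 and 139 CPM in sham, and fell in both fits (−0.79 ± 0.19, adjusted p = 0.042, and −0.54 ± 0.10, adjusted p = 0.032). Slc26a4, the anion exchanger pendrin, had 2.52, 2.46 and 1.89 CPM in JU and 3.83, 2.6 and 4.03 CPM in vehicle, against 4.90, 4.85 and 3.86 CPM in sham. Its log2 fold change was −0.99 ± 0.24 (adjusted p = 0.044), and −1.05 ± 0.28 (adjusted p = 0.063) without JU replicate 1. Lancl3, Zxdb and Pabpc1l2b also fell with all libraries, with log2 fold changes of −0.85, −0.81 and −1.34 and adjusted p of 0.046, 0.045 and 0.049. All 5 of Sms, Slc26a4, Lancl3, Zxdb and Pabpc1l2b had every JU library below every sham library.

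Several named genes rose in both fits. Kcne1l, an accessory subunit of potassium channels, had 17.9, 10.4 and 18 CPM in JU and 13.9, 14.1 and 12.7 CPM in vehicle, against 6.84, 5.42 and 6.21 CPM in sham. Its log2 fold change was 1.32 ± 0.22 (adjusted p = 0.021), and 1.22 ± 0.23 (adjusted p = 0.030) without JU replicate 1. Vasn, a membrane protein that binds TGF-beta, had 24.8, 13 and 13.4 CPM in JU, against 7.74, 6.05 and 7.36 CPM in sham (1.28 ± 0.26, adjusted p = 0.027, and 0.92 ± 0.20, adjusted p = 0.040). Efnb1, the ligand ephrin-B1, had 21.6, 20.5 and 19.6 CPM in JU and 15.8, 16.9 and 19.4 CPM in vehicle, against 13.3, 13.7 and 14.5 CPM in sham (0.57 ± 0.11, adjusted p = 0.023, and 0.55 ± 0.12, adjusted p = 0.039). All JU libraries exceeded all sham libraries for Kcne1l, Vasn and Efnb1.

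Spen and Med12 also rose in both fits. Spen, a transcriptional corepressor of the Notch pathway, had 96.4, 91.5 and 88.2 CPM in JU, against 66.3, 64.5 and 58.6 CPM in sham (0.54 ± 0.08, adjusted p = 0.021). Med12, a subunit of the Mediator kinase module, had 51.4, 27.2 and 32.1 CPM in JU, against 21.1, 20.8 and 17.4 CPM in sham (0.90 ± 0.20, adjusted p = 0.034). Pak4, a kinase of the actin cytoskeleton, Anks1, Zfp276, C77080 and Ier5l rose in both fits, with log2 fold changes of 0.90, 0.64, 0.71, 0.97 and 0.59 with all libraries. Spen and Med12 passed without JU replicate 1 too, with log2 fold changes of 0.52 and 0.60 and adjusted p of 0.025 and 0.039. Mlxipl, the carbohydrate response factor ChREBP, rose with all libraries (6.78, 3.06 and 5.36 CPM in JU, against 1.63, 1.15 and 0.94 CPM in sham, log2 fold change 2.03 ± 0.43, adjusted p = 0.030) and had an adjusted p of 0.055 without JU replicate 1. Lpin3, Galnt15, Rrad, Nradd and Plekhg2 rose with all libraries by log2 fold changes of 2.74, 2.10, 1.98, 1.96 and 1.86. Each had a mean level under 20 CPM in JU. Without JU replicate 1 their log2 fold changes were 1.68, 1.25, 1.24, 1.09 and 0.91, and their adjusted p lay between 0.087 and 0.13.

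Of the 309 genes past the threshold without JU replicate 1, 59 passed in that fit alone. Cdh11, a cadherin of mesenchymal cells and neurons, had 28.6 and 51.9 CPM in JU replicates 2 and 3 and 84.3 CPM in JU replicate 1, against 82.2, 81.2 and 83.7 CPM in sham, and had a log2 fold change of −1.02 ± 0.22 (adjusted p = 0.042). Fmnl1, a formin that nucleates actin, had 156 and 149 CPM in JU replicates 2 and 3 and 90.7 CPM in JU replicate 1, against 102, 103 and 95.1 CPM in sham (0.62 ± 0.14, adjusted p = 0.040). Gapdh, a glycolytic enzyme, had 41.6 and 71.9 CPM in JU replicates 2 and 3 and 29.9 CPM in JU replicate 1, against 29, 29.3 and 33.5 CPM in sham (0.90 ± 0.16, adjusted p = 0.030); its reads may be shared with many near-identical copies, so its level is uncertain. Gapdh was the 1 of 19 hypoxia and glycolysis genes past the threshold there, against 0.363% of all genes higher. With all libraries edgeR and voom called none of the 19 and limma on FPKM 1. In that fit 7 had an unadjusted p under 0.05 in edgeR (against 32.9% of all genes), and DESeq2 called 6 (against 20%). Tipin, which acts at the replication fork, and Hmgn5, a nucleosome-binding protein, fell by log2 fold changes of −0.70 and −0.69 without JU replicate 1, with adjusted p of 0.025 and 0.034.

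Sterol and bile acid genes were listed because the title names a bile acid. The 23 cholesterol synthesis and uptake genes had a median log2 fold change of −0.50 (−0.12 without JU replicate 1), and their summed level was 679, 1798 and 1607 CPM in JU and 1033, 833 and 1338 CPM in vehicle, against 1836, 1917 and 2002 CPM in sham. Every JU library lay below the sham range in the sum. None passed edgeR, voom, limma on FPKM or DESeq2. In edgeR 1 had an unadjusted p under 0.05 (against 32.9% of all genes), and 0 without JU replicate 1 (against 19.7%). Hmgcs1, an early enzyme of cholesterol synthesis, had 97.6, 348 and 311 CPM in JU and 164, 120 and 255 CPM in vehicle, against 394, 412 and 447 CPM in sham (adjusted p = 0.27). Of 19 bile acid and oxysterol genes 10 were tested, with a median of 0.51 (0.16 without JU replicate 1). None passed edgeR, voom or limma on FPKM. DESeq2 called 1 (against 20% of all genes) and 6 had an unadjusted p under 0.05 (against 32.9%). Without JU replicate 1, 0 had an unadjusted p under 0.05 in edgeR, against 19.7% of all genes, and DESeq2 called 0.

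Myelin genes were slightly low by their median but not by their sum. The summed level was 7984, 6857 and 8362 CPM in JU and 7250, 8804 and 9097 CPM in vehicle, against 8042, 7774 and 8049 CPM in sham. In the sum JU 1 lay inside the sham range, JU 2 below it and JU 3 above it. The 15 oligodendrocyte and myelin genes had a median of −0.28 (−0.20 without JU replicate 1), and 7 of them lay below sham in all JU libraries without overlap, against 17.6% of all genes. None passed edgeR or voom, and limma on FPKM called 1. In edgeR 6 had an unadjusted p under 0.05 (against 32.9% of all genes), and DESeq2 called 3 (against 20%). With the GC trend removed the myelin median was −0.13, and −0.17 without JU replicate 1. Mal, a myelin membrane protein, had 231, 250 and 271 CPM in JU and 215, 273 and 274 CPM in vehicle, against 361, 357 and 330 CPM in sham (log2 fold change −0.48 ± 0.13, adjusted p = 0.057). Ermn, a cytoskeletal protein of mature oligodendrocytes, had 51.4, 44.7 and 49.4 CPM in JU, against 62.1, 67.1 and 69.2 CPM in sham (adjusted p = 0.054), and its log2 fold change of −0.45 became −0.13 with the GC trend removed.

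Red blood cell transcripts were higher in JU than in sham. The 6 tested genes had a summed level of 391, 526 and 505 CPM in JU and 13.6, 4.17 and 146 CPM in vehicle, against 211, 199 and 145 CPM in sham. Their median log2 fold change was 1.31 (1.48 without JU replicate 1). None passed edgeR, DESeq2, voom or limma on FPKM, and none had an unadjusted p under 0.05. The sums did not overlap between JU and sham, and 2 of the 3 vehicle libraries lay far below both.

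The lists not described above held no gene past edgeR's threshold in either fit. They were chemokines, cytokines, interferon response, antigen presentation, oligodendrocyte precursor, endothelial, choroid plexus, ependymal, hippocampal, interneuron, cerebellar, immediate early, NRF2 antioxidant, stress response, p53, ribosomal protein, growth factor and primary cilium genes. Their median log2 fold changes ran from −0.42 for interneuron genes to 2.27 for chemokines and receptors, and from −0.16 for hippocampal neuron genes to 0.90 for chemokines and receptors without JU replicate 1. With all libraries, 0 to 12 members of each had an unadjusted p under 0.05 in edgeR and DESeq2 called 0 to 11. Voom and limma on FPKM called none. Over all genes 32.9% had such a p and DESeq2 called 20%, and the lists lay on both sides of these shares. Of 15 cytokine and receptor genes tested, 12 had such a p and DESeq2 called 11. Of 11 chemokine and receptor genes the counts were 8 and 7, and of 10 choroid plexus genes 0 and 0. Without JU replicate 1 the cytokine counts were 2 (against 19.7% of all genes) and 0. In the immediate early list, whose members mark recent neuronal activity, Egr1 had 35.2, 321 and 231 CPM in JU and 115, 50.7 and 289 CPM in vehicle, against 156, 148 and 217 CPM in sham, so that JU libraries lay on both sides of the sham range.

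A direct test of JU against vehicle found no gene past edgeR's threshold, with 292 genes at an unadjusted p under 0.05. DESeq2 called 2 genes, and voom and limma on FPKM called 0. Without JU replicate 1 edgeR again called 0, with 3178 genes at an unadjusted p under 0.05, DESeq2 called 405 (110 higher and 295 lower in JU) and voom and limma on FPKM called 0. A p that misses the threshold does not show that JU and vehicle were alike. Gpr183 had a log2 fold change of JU over vehicle of 0.02 ± 0.63 with all libraries and −1.50 ± 0.40 (adjusted p = 0.19) without JU replicate 1. Fcrls gave −0.75 ± 0.64 and −1.71 ± 0.67 (adjusted p = 0.20). Tfrc gave 0.26 ± 0.16 and 0.40 ± 0.15 (adjusted p = 0.19), and Ndufs1 gave −0.01 ± 0.10 and 0.08 ± 0.09 (adjusted p = 0.59). The sign for Gpr183 and Fcrls without JU replicate 1 was thus negative, that for Tfrc was positive, and both values for Ndufs1 were within 1 SE of 0.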

How the data were processed

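The deposited table held whole-number read counts and FPKM values (fragments scaled to transcript length and library size) per gene, both made by the authors. Per the submitters' processing notes, Trimmomatic, HISAT2, Cufflinks and DESeq were used with GRCm38 (mm10). The sources used here do not give versions, roles, annotation, counting program or strand setting. The kit was strand-specific for mRNA, per the labels' protocols. A deposited count column, 1 in all, had a header starting with JU but matched no sample label and was not used. Whether it held a further JU library is not stated in the sources used here.

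The tests started from the deposited counts in edgeR 4.0.16 (R 4.3.3) with TMM scaling, robust glmQLFit and glmQLFTest, all 15 libraries and group as the only term (10 residual degrees of freedom, common biological coefficient of variation 25.7%, or 9 and 16% without JU replicate 1). Genes had at least 10 counts in 3 or more of the 6 JU and sham libraries, and the threshold was a Benjamini-Hochberg adjusted p of 0.05. CPM are scaled by TMM, errors in fold changes are SE derived from the F statistic, and counts under 3 in a library were taken as the floor. No duplicated library was found. The test was tried on simulated counts without an outlying library or a GC trend, so that trial cannot speak to either. Alternatives were DESeq2 1.42.0, limma 3.58.1 as voom or on log2(FPKM + 1) with FPKM of at least 0.5 in 3 libraries, other scaling and filters, a GC correction, a replicate block and leaving out libraries. GENCODE transcripts gave a GC content for 99.3% of tested genes. Ndufb1 and Pabpc1l2b had none. Replicate numbers came from the labels, and the deviations of same-numbered JU and sham libraries did not correlate.

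Named genes were, per fit, up to 12 higher and 12 lower with the largest log2 fold change among genes past the threshold, without overlap between groups, with a mean of at least 1 CPM and with a symbol that is not a predicted or unnamed gene. The 10 genes with the largest excess in JU replicate 1 were also named. For each list they were up to 4 with the smallest p without JU replicate 1 and 2 with the highest level. Cx3cr1 and Drd1 fall outside this rule and were chosen after their values were seen. The comparison, its 44 lists (703 genes, 644 of them tested, 56 under the count minimum and 3 not in the table) and the named-gene rule were chosen with earlier results of these data known. A gene that the rule names in the striatal list is not reported here.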

Additional observations from a re-analysis of the deposited data

Results flagged for a closer look

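Hbb-bs, a beta globin chain, and Alas2, the enzyme that starts haem synthesis in red cells, lay above every sham library in all JU libraries and below the sham mean in all vehicle libraries. Hbb-bs had 221, 312 and 292 CPM in JU and 7.46, 1.96 and 86.6 CPM in vehicle, against 116, 118 and 82.4 CPM in sham. Alas2 had 13, 21.7 and 16.9 CPM in JU and 0.61, 0.05 and 5.38 CPM in vehicle, against 7.16, 7.51 and 4.54 CPM in sham. The log2 fold change of JU over vehicle was 3.10 ± 1.09 for Hbb-bs and 3.09 ± 1.08 for Alas2, each with an unadjusted p of 0.014 and an adjusted p of 1.0 in edgeR (0.19 for both without JU replicate 1). Neither difference therefore passed the threshold. Reads of the globin genes may be shared between near-identical copies, and how blood was removed from the tissue is not given in the sources used here.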

How the results depend on the processing

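The count of 582 genes for JU against sham stayed within 1.5 times under voom, limma on FPKM, size factors of the DESeq2 type and the filterByExpr filter. DESeq2 gave 2922 (1707 higher and 1215 lower), no filter on low counts 230, and the fit of the compared groups alone 0 (2152 unadjusted). The GC correction gave 0 with all libraries and 0 without JU replicate 1, and 0 with the compared groups alone, an alternative chosen after seeing the data. Leaving out 1 library gave 0 to 4236. Without JU replicate 1 the count of 309 became 1070 with DESeq2, 477 with limma on FPKM, 160 with no filter, 1449 with the compared groups alone and 0 with the GC correction, with all groups or the compared groups alone (chosen after seeing the data). Leaving out a further library gave 0 to 169. For JU against vehicle, starting from all libraries, DESeq2 gave 2 and the other alternatives gave 0. Without JU replicate 1, DESeq2 gave 405. The filterByExpr filter, no filter, the compared groups alone and leaving out vehicle replicate 1 gave 1 each there. Voom, limma on FPKM, the GC correction and the replicate block gave 0. The cause of these differences was not tested.

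The deviations of same-numbered JU and sham libraries did not correlate, with values of −0.02, −0.01 and 0.00. Pairs with other numbers gave −0.05 to 0.05. The other groups were not compared, so these values cannot show whether replicate numbers pair the samples. With the replicate block, 0 genes passed for JU against sham in both fits (4222 unadjusted, 2554 without JU replicate 1) and 0 for JU against vehicle. Of the genes named, 5 changed sign, none of them past edgeR's threshold with all libraries. Slc1a2 (log2 fold change −0.08) became 0.034 with the GC correction and 0.035 with it and the compared groups alone, and leaving out 1 library gave −0.18 to 0.092. Camk2a (0.02) became −0.083 with either GC correction, −0.085 with limma on FPKM, −0.10 with voom and −0.0073 with the replicate block, and leaving out 1 library gave −0.26 to 0.35. Egr1 (0.17) became −0.27 with limma on FPKM, −0.31 with voom and −0.082 with the replicate block, and leaving out 1 library gave −0.38 to 0.68. Leaving out 1 library gave −1.25 to 5.55 for Cfap77 (4.97) and −0.018 to 3.46 for Mki67 (2.93), each lowest without JU replicate 1. The median of 7 of the 44 lists moved by more than the spread between JU libraries when JU replicate 1 was left out. That spread was itself wide where JU replicate 1 lay apart. For reactive microglia the mean log2 differences from sham were 5.31, 0.34 and 1.81 in the JU libraries. The count of 7 therefore cannot show that the other medians held without JU replicate 1. Each of the 15 libraries held 18346180 to 20447465 counts, and genes under about 1 CPM rest on few counts.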
